A study of Mus musculus with 19 samples.

Results

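Oct4 binding in mouse embryonic stem cells (ESC) was compared with and without Nup153, from 1 list of Oct4 ChIP-seq peaks on each side. The lists held 1462 peaks in the control and 1598 in the Nup153 knockdown, out of 76793 regions in the 9 peak lists of the whole series. Peaks of both lists that overlapped by at least 1 bp counted as shared, which gave 940 shared peaks, 522 found in the control list only and 658 found in the knockdown list only, or 2120 Oct4 regions in all. Both ChIP libraries came from E14 ESC, a mouse line kept here on irradiated embryonic fibroblasts, after lentiviral delivery of a short hairpin and at least 4 days of puromycin selection. The control cells carried a hairpin with no target (shCtrl), and the knockdown cells carried shNup153 #2. RNA-seq covered 1 shCtrl library, 1 library each of the hairpins shNup153 #2 and shNup153 #4 in the same line, and 2 libraries of neural progenitors (NeuP) without hairpin, derived through embryoid bodies with Noggin and grown with FGF2 and EGF, whose line of origin the labels leave out. The series also holds peak lists for the Polycomb proteins Ring1B, in shCtrl ESC, both Nup153 hairpins and NeuP, and Cbx7, in shCtrl ESC. Further lists are from DamID, which marks DNA near a protein fused to a bacterial methylase, with Nup153 and with Oct4 in ESC without hairpin. Per the labels, puromycin was also started in the DamID cells, for a time that they do not give.

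Oct4, the product of Pou5f1, is a POU-family transcription factor that holds ESC in the pluripotent state. It binds octamer elements, often beside Sox2, at promoters and at enhancers far from genes. Nup153 is a nucleoporin of the nuclear basket, the part of the pore that faces chromatin, and Ring1B and Cbx7 belong to Polycomb repressive complex 1, which keeps developmental genes silent in ESC.

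To show the kind of site behind each class of peak, 4 promoters that held a peak centre and the octamer ATGCAAAT on either strand are given here. Their windows run from 250 bp before to 50 bp after the gene's start, in RefSeq sequence of the build GRCm38.p6. They belong to Pipox, a peroxisomal amino acid oxidase (chr11:77893823-77894122, minus strand, shared peak), to Pim2, a serine/threonine kinase (chrX:7878056-7878355, plus strand, shared peak), to Liph, a lipase (chr16:21995493-21995792, minus strand, control-only peak), and to Gadd45g, a stress-response gene (chr13:51846425-51846724, plus strand, knockdown-only peak). Each is written 5′ to 3′ on the gene's strand, and capitals mark the octamer or its reverse complement ATTTGCAT.
Pipox: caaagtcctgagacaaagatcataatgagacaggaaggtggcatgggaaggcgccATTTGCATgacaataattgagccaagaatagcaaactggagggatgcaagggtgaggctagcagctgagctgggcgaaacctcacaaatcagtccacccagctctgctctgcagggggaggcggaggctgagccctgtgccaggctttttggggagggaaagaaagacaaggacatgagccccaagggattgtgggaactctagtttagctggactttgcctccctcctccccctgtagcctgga
Pim2: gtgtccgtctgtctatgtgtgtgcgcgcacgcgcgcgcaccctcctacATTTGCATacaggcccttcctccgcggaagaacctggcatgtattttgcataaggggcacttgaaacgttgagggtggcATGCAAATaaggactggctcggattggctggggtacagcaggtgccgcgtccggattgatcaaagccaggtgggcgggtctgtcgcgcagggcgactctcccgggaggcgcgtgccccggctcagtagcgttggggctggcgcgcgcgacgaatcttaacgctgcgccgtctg
Liph: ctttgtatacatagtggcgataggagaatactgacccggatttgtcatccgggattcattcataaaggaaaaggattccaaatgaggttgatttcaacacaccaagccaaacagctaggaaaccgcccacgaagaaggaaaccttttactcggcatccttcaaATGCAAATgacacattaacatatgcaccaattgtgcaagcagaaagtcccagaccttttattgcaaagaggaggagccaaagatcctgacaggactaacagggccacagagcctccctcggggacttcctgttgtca
Gadd45g: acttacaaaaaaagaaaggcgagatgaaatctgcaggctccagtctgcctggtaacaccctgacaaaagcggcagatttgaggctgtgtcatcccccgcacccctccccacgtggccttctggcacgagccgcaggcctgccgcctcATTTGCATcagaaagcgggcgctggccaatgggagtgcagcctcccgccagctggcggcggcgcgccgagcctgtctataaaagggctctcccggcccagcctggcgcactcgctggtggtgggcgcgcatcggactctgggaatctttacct

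The octamer nearest to the peak lay 8 bp from the peak centre in Pipox, 19 bp in Pim2, 10 bp in Liph and 4 bp in Gadd45g, measured as distances from the gene's start. These 4 genes were chosen after their matches were seen. Outside these windows, Gadd45g also had a shared peak 626 bp upstream and Pim2 a knockdown-only peak 8222 bp upstream. A peak centre lay in the promoter window of 13 genes for shared peaks, 9 for control-only peaks and 9 for knockdown-only peaks, and RefSeq sequence was matched by symbol for 12, 8 and 7 of them. The octamer occurred in 4 of 12, 2 of 8 and 2 of 7 of these genes, against 570 of all 32851 promoters in the reference table (1.74%). The units differ, since a gene counted if any of its promoters held a match, while the background counts single promoters. The variant ATGCTAAT (reverse ATTAGCAT) was searched on both strands and counted apart from the octamer. It was present in 3, 2 and 2 of these genes, against 0.919% of all promoters. Shared and unshared promoter peaks both included windows with the octamer, and numbers this small do not separate the 3 classes. Peaks were placed on mm9 and the sequence on GRCm38.p6, so the distances assume the same start of the gene in both, and the sequence under the many peaks outside promoters was not analysed here.

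Both lists came from HOMER's peak caller in its factor style, with the same IgG library as background, per the file headers. The control library held 24.6 M tags and the knockdown library 20.1 M. Of these, 41180 tags (0.167%) and 36746 tags (0.182%) lay in peaks, or 28.2 and 23.0 tags per peak. Before filtering, the control had more candidate peaks, 4439 against 3539. The requirement of at least 4-fold enrichment over IgG then removed 2971 candidates in the control (66.9%, Wilson 95% interval 65.5 to 68.3) and 1931 in the knockdown (54.6%, 52.9 to 56.2). The order of the lists by length was therefore the reverse of the order before this filter. The headers also show that tags of the control ChIP were scaled to the IgG library, whereas in the knockdown list the IgG tags were scaled to the ChIP. With 1 library a side, and with depth, tag threshold (14 tags in the control, 13 in the knockdown) and scaling all different between them, loss or gain of a peak and a difference between libraries cannot be told apart. All intervals below cover counting error only.

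Shared peaks made up 64.3% of the control list (61.8 to 66.7) and 58.8% of the knockdown list (56.4 to 61.2). The centres of paired peaks lay a median of 26 bp apart, and 76.6% of pairs lay within 50 bp, so shared peaks marked nearly the same position in both libraries. Unshared peaks were rarely near misses. Only 20 of the 522 control-only peaks had a knockdown peak whose edge lay within 500 bp, and 12 of the 658 knockdown-only peaks had such a control peak. A near miss did occur 14 kb upstream of Zfp42, the gene of the pluripotency marker Rex1, where the control-only peak chr8:44406203-44406379 and the knockdown-only peak chr8:44406422-44406596 lay side by side without touching (coordinates of peaks are mm9 throughout).

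Sharing was tied to the place of a peak in its list. The lists give no peak heights, and the headers do not state their order, although HOMER as a rule writes the peaks with most tags first. Each list was cut into 10 equal parts. In the first part of the control list 95.9% of peaks (91.4 to 98.1) were shared, and in the last part 30.8% (23.9 to 38.7). The knockdown list gave 96.2% (92.1 to 98.3) and 28.9% (22.4 to 36.4). Shared peaks had a median place of 526 in the control list and 540 in the knockdown list, against 1050 and 1110 for peaks found on 1 side. The places of the 940 shared pairs in both lists had a Spearman rho of 0.67, a description of peaks from 2 libraries called against 1 background. The class of a peak therefore moved with its place in the list, and the part of that place in the differences between classes below was examined by taking peaks past or before the middle of each list.

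**Figure D1:**
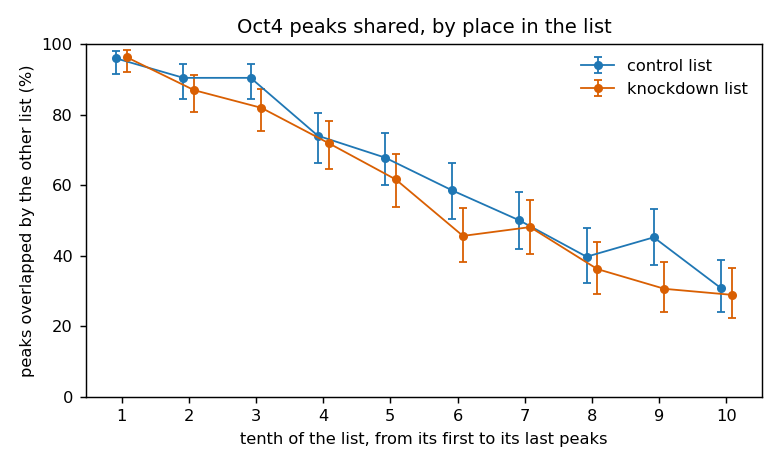
Share of Oct4 peaks overlapped by the other list (%), for 10 equal parts of the control list and of the knockdown list from first to last peaks; bars are Wilson 95% intervals. Both lists start near 96% and end near 30% (30.8% and 28.9%).

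Chromosomes 6 and X stood apart from the rest. Chromosome 6 held 130 control peaks and 92 knockdown peaks, a ratio of 0.708, with 70 shared, 60 control-only and 22 knockdown-only peaks. Chromosome X held 17 control peaks and 40 knockdown peaks, a ratio of 2.35, with 14 shared, 3 control-only and 26 knockdown-only peaks. Over the other autosomes the ratio of knockdown to control peaks ran from 0.935 to 1.44. The 60 control-only peaks of chromosome 6 were spread from 4.07 to 149 Mb rather than gathered in 1 stretch. The median log2 change in RNA of genes on chromosome 6 was 0.02 in hairpin #2 and 0.04 in hairpin #4 (674 genes), that on chromosome X was 0.10 and 0.06 (512 genes), and the other chromosomes ran from 0.04 to 0.11 and from 0.05 to 0.11. Chromosome 6 thus had the lowest median in both hairpins, and the differences between chromosomes were small. Without both chromosomes, 65.1% of the control list and 58.4% of the knockdown list were shared.

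**Figure D2:**
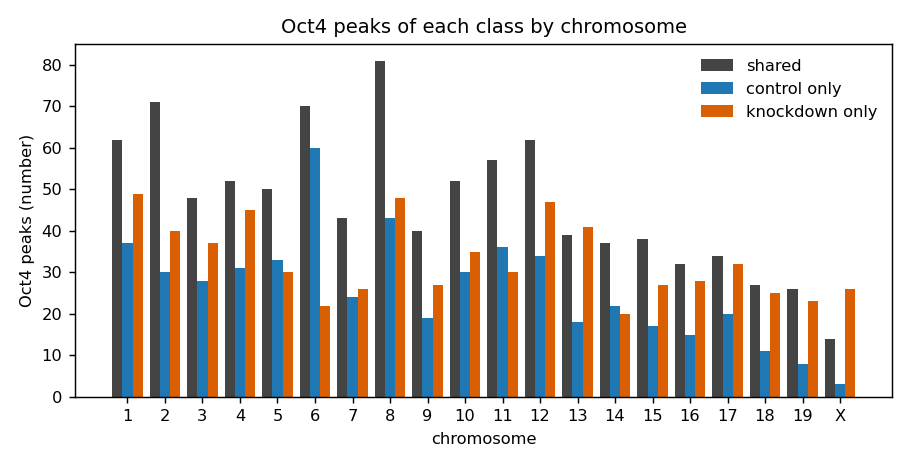
Number of shared, control-only and knockdown-only Oct4 peaks on each mouse chromosome. On chromosome 6 control-only peaks (60) outnumber knockdown-only peaks (22), and on X the order is the opposite (3 and 26).

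Chromosome 6 carries the cluster of pluripotency genes around Nanog, and 4 genes within it had peaks. Gdf3, a growth factor of the TGF-beta family, had a shared peak 1450 bp downstream of its start (chr6:122558551-122558727, place 27 of the control list). Dppa3, a maternal factor also known as Stella, had a shared peak 1745 bp upstream (chr6:122574609-122574785, place 65). Nanog, the homeobox factor of the core network, had a control-only peak 7842 bp upstream (chr6:122649577-122649753, place 1192). Phc1, a subunit of Polycomb repressive complex 1, had a shared peak 2822 bp upstream and a control-only peak 1016 bp upstream. In this stretch the peaks early in the list were shared and both control-only peaks came late (places 1192 and 1072). The RNA of Dppa3 was below the control in both hairpins, at 50.0 FPKM in the control, 32.7 in hairpin #2 and 34.6 in hairpin #4. Dppa3 was added to the named genes after its values were seen.

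Most Oct4 peaks lay far from transcription start sites (TSS), in each class. The peak centre was within 2 kb of a TSS of the 24016 transcripts in the RNA table for 98 shared peaks (10.4%, 8.63 to 12.5), 62 control-only peaks (11.9%, 9.38 to 14.9) and 54 knockdown-only peaks (8.21%, 6.34 to 10.6). Windows of that size cover 4.4% of the 2000 Mb that the headers give as genome size. More of these peaks lay upstream than downstream of the start, 63 against 35, 41 against 21, and 37 against 17. The median distance to the nearest TSS was 24.7 kb for shared, 23.3 kb for control-only and 30.7 kb for knockdown-only peaks, and 69.0%, 68.2% and 62.3% lay within 50 kb. Inside a transcript lay 38.3%, 38.3% and 42.4%. The intervals at 50 kb were 58.5 to 65.9 for knockdown-only, 66.0 to 71.9 for shared and 64.1 to 72.0 for control-only peaks, so knockdown-only peaks were beyond the interval of shared peaks but not of control-only peaks. The intervals at 2 kb overlapped between all 3 classes.

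**Figure D3:**
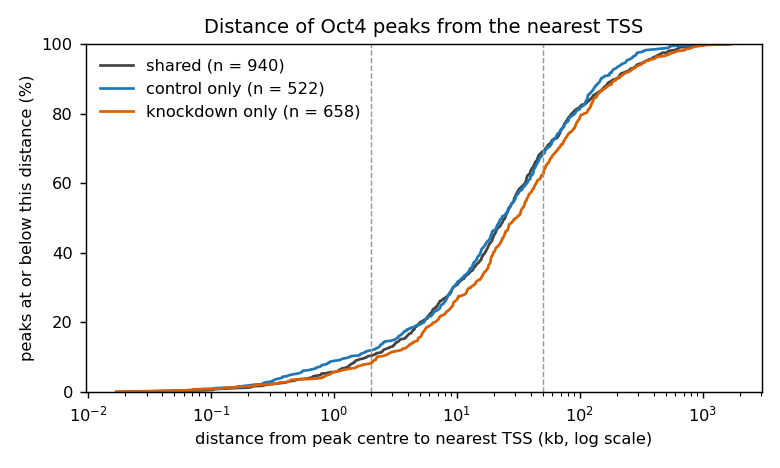
Cumulative share of Oct4 peaks (%) by distance from the peak centre to the nearest TSS (kb, log scale) for shared, control-only and knockdown-only peaks; dashed lines mark 2 and 50 kb. The knockdown-only curve lies below the others over most distances and reaches 62.3% at 50 kb, against 69.0% and 68.2%.

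Other factors mapped in the same series overlapped shared Oct4 peaks more often than peaks of 1 list. Oct4 DamID regions overlapped 30.2% of shared peaks (27.4 to 33.2), 20.3% of control-only peaks (17.1 to 24.0) and 16.9% of knockdown-only peaks (14.2 to 19.9), although these regions cover 0.534% of the genome size. Nup153 DamID regions, which cover 0.52%, overlapped 17.1% (14.9 to 19.7), 12.8% (10.2 to 16.0) and 9.88% (7.83 to 12.4). Over whole lists the Nup153 share of control-only peaks was below that of shared peaks and above that of knockdown-only peaks, with overlapping intervals in both cases. Before the middle of the control list it was 17.6% for control-only (11.8 to 25.5) and 19.6% for shared peaks (16.7 to 22.9). A comparison of only the peaks before the middle of both lists drew the classes anew. There, peaks that overlapped only a later peak of the other list counted as unshared. The Nup153 share was then 20.9% for control-only (16.2 to 26.6) and 18.5% for shared peaks (15.3 to 22.2), the opposite order.

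Polycomb proteins gave the largest overlaps, and a different order of the unshared classes. Ring1B regions of control ESC, 0.396% of the genome size, overlapped 77.6% of shared (74.8 to 80.1), 50.4% of control-only (46.1 to 54.7) and 59.6% of knockdown-only peaks (55.8 to 63.3). Cbx7 regions of control ESC overlapped 42.2% (39.1 to 45.4), 23.0% (19.6 to 26.8) and 31.2% (27.7 to 34.8). Knockdown-only peaks thus overlapped Polycomb regions more often than control-only peaks did, even though both Polycomb lists came from control cells. The order was the same in the Ring1B lists of hairpin #2 (78.0%, 49.2% and 61.6%) and hairpin #4 (73.1%, 42.5% and 56.4%), which differ in depth from 4.99 M tags in the control to 30.8 M and 9.95 M in the hairpins. Ring1B regions of NeuP overlapped far fewer peaks of each class, 8.51%, 6.51% and 4.71%, at 33.2 M tags.

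The same overlaps were taken for peaks past the middle of their list, each unshared class against shared peaks by their place in the same list. On the control side, Ring1B of control ESC overlapped 67.7% of shared (62.4 to 72.5) and 46.9% of control-only peaks (42.1 to 51.8), and Cbx7 33.8% (28.9 to 39.1) and 20.8% (17.2 to 25.1). Oct4 DamID overlapped 23.5% (19.2 to 28.4) and 19.9% (16.2 to 24.0), and Nup153 DamID 12.5% (9.35 to 16.5) and 11.4% (8.67 to 14.9). There the Polycomb gaps were beyond the intervals and the DamID gaps were not. On the knockdown side, Ring1B overlapped 66.3% of shared (60.8 to 71.4) and 55.0% of knockdown-only peaks (50.6 to 59.4), Oct4 DamID 29.4% (24.5 to 34.7) and 15.7% (12.8 to 19.2), and Nup153 DamID 16.8% (13 to 21.5) and 9.68% (7.38 to 12.6). Cbx7 overlapped 27.1% (22.4 to 32.3) and 28.8% (25.0 to 33.0). On this side the gaps for Ring1B and both DamID lists were beyond the intervals, and for Cbx7 the shared peaks were the lower of the pair, with overlapping intervals.

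**Figure D4:**
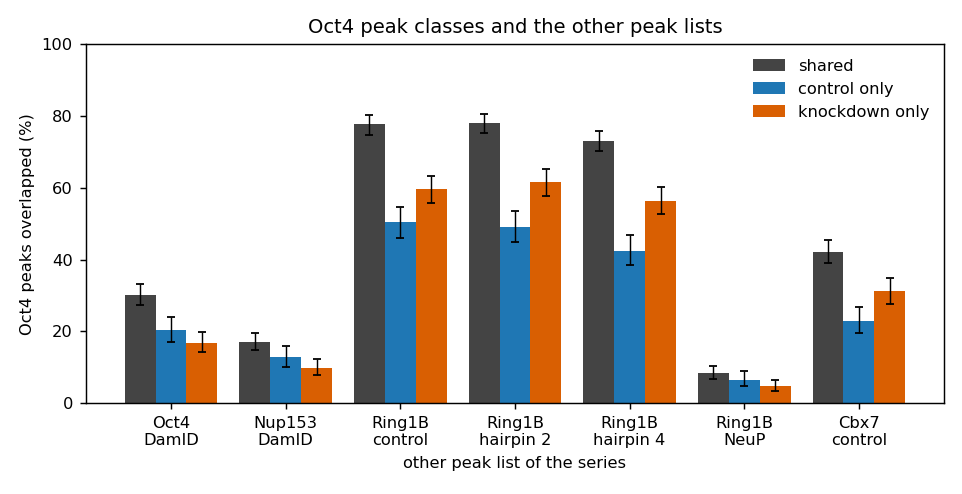
Share of Oct4 peaks (%) that overlap each other peak list of the series by at least 1 bp, for shared, control-only and knockdown-only peaks; bars are Wilson 95% intervals. Shared peaks are highest for each list, and knockdown-only peaks exceed control-only peaks for Ring1B in ESC and Cbx7 (for Ring1B in control ESC 59.6% and 50.4%).

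Taking the nearest TSS within 50 kb of a peak centre, the peaks of both lists pointed to 1268 genes, or 5.28% of the table. Pluripotency genes were frequent among them: 21 of 36 genes of a core pluripotency list (58.3%), against 7.51% of the 11685 genes with at least 1 FPKM, an RNA level scaled to transcript length and depth, in control ESC. Of these, 15 had a shared peak, 6 a control-only peak and 6 a knockdown-only peak, some of them in combination. Nodal and Lefty signalling genes followed with 7 of 17, trophoblast genes with 4 of 12 and Polycomb subunits with 8 of 26. Neural progenitor genes had 4 of 20, endoderm genes 3 of 18, primed epiblast genes 2 of 11, feeder fibroblast genes 1 of 19 (Fn1), and mesoderm and nuclear pore genes 0 of 15 and 0 of 12. No Oct4 peak had Nup153 as its nearest gene.

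The knockdown itself was visible in RNA. Nup153 was at 39.4 FPKM in the control, 20.9 in hairpin #2 and 17.4 in hairpin #4, and at 12.8 and 29.1 in NeuP. The log2 change of the log2(FPKM + 1) values in the knockdown was -1.01 ± 0.55 (SE), with an adjusted p of 0.897 in limma. Pou5f1 itself carried a shared peak 1966 bp upstream of its start (chr17:35640923-35641099, place 107) and stood at 543 FPKM in the control and 476 and 501 in the hairpins, so Oct4 RNA in each hairpin library was within 0.19 of the control on the log2 scale. In NeuP it was at 1.99 and 1.65 FPKM.

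Limma called 0 of 13750 genes (0%) as changed in the knockdown at an adjusted p under 0.05, hence 0 of the 987 tested genes nearest to an Oct4 peak. Before adjustment 814 genes in all and 68 of the 987 had a p under 0.05, and voom on the recovered reads also called 0 (482 before adjustment). The control had 1 library, and the spread came from the pair of hairpins and the pair of NeuP libraries. A fit of the 3 ESC libraries alone called 0 of the same genes (4673 before adjustment). The outcome turned on the filter: with genes at an FPKM of 1 or more in these 3 libraries only, which was tried after the data were seen, 1932 of 12436 genes (15.5%) were called higher and 778 (6.26%) lower. Near Oct4 peaks these were 196 of 919 higher (21.3%) and 59 lower (6.42%). That fit had 1 residual degree of freedom, and 5.6 prior degrees of freedom in place of 2.46 without the new filter. Since no label names separate cultures, the p-values reflect the spread between these libraries alone, which may be technical.

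By size alone, the genes of the 3 classes had medians close to each other. The median log2 change in hairpins #2 and #4 was 0.14 and 0.14 for the 418 tested genes near shared peaks only, 0.12 and 0.10 for 226 genes near control-only peaks, and 0.11 and 0.11 for 272 genes near knockdown-only peaks, against 0.08 and 0.09 over all genes. Each of these medians is above that of all genes, by no more than 0.06. Both hairpins were above the control in 61.4% of genes near any Oct4 peak and in 55.0% of all genes. Genes near a control-only peak were not lower as a group in the knockdown, nor were genes near a knockdown-only peak higher than those near a shared peak. In the 47 tested genes with a knockdown-only peak within 2 kb of the start the median was -0.01. It was 0.14 in the 50 with a control-only peak that close and 0.20 in the 83 with a shared one.

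On the log2(FPKM + 1) scale, a level at least 2-fold that of the control in both hairpins was measured in 8 of the 987 genes near Oct4 peaks (0.811%), against 0.305% of all genes tested, and 0 were at least 2-fold lower, against 0.16% of all. The number near peaks ran from 0 to 32 with other pseudocounts and was 47 with voom, and the number at least 2-fold lower was 2 with a pseudocount of 0.1 and 7 with voom, so both depend on how the levels are scaled. Of the 8 genes, Nodal, Lefty1, Gdf3, Vegfc and Mir290a lay near shared peaks, C330021F23Rik near a control-only peak, and Cenpm and Zfhx2 near knockdown-only peaks. Lefty1, with the largest change of the 8, had a peak in both lists.

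The Nodal pathway gave 3 of these genes, a pair of ligands and an inhibitor. Nodal, the ligand, had a shared peak 1893 bp upstream (chr10:60878739-60878915) and stood at 9.07 FPKM in the control, 20.0 in hairpin #2 and 19.6 in hairpin #4. Gdf3, a related ligand, stood at 8.16, 18.3 and 18.5 FPKM. Lefty1, a secreted inhibitor of Nodal, had a shared peak 1132 bp upstream (chr1:182863950-182864126) and stood at 0.247, 2.53 and 3.56 FPKM. In each of these genes both hairpins lay well above the control. The log2 changes were 1.05 ± 0.16, 1.08 ± 0.16 and 1.69 ± 0.21 (SE), each with an adjusted p of 0.825 in limma, and all 3 genes were listed at 0 in both NeuP libraries. The second inhibitor, Lefty2, had a knockdown-only peak 4289 bp upstream and stood at 0.562, 1.78 and 1.61 FPKM. It was picked after its values were seen. Its difference was 0.83 and 0.74 on the log2(FPKM + 1) scale.

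Other members of the pathway gave smaller or mixed differences. Foxh1, the DNA-binding partner of the Smads, had a shared peak 40 bp from its start and stood at 33.3, 28.2 and 28.4 FPKM. Skil, an inhibitor of the Smads, had a control-only peak 5475 bp upstream and stood at 13, 14.3 and 14.2 FPKM. Tdgf1, the co-receptor of Nodal also known as Cripto, had a knockdown-only peak 1498 bp upstream (place 1477 of 1598) and stood at 54.3, 48.0 and 104 FPKM. The hairpins disagreed in Tdgf1, where #2 was below and #4 above the control, although the ChIP came from #2. Of the 17 genes of the list, 12 were above and 4 below the control in both hairpins, and 0 were called. Over all genes tested these shares were 55.0% and 29.5%.

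Named core pluripotency genes whose peaks within 50 kb were in the control list only did not have lower RNA in the hairpins. Nanog, whose peak was in the control list only, stood at 246 FPKM in the control and 335 and 373 in the hairpins. Esrrb, an orphan nuclear receptor of the network, had a control-only peak 49.4 kb downstream of its start and stood at 119, 132 and 135 FPKM. Prdm14, a repressor of differentiation genes, had a control-only peak 42.1 kb away and stood at 11.6, 13.7 and 16.3 FPKM. In all 3 genes both hairpins were above the control, although the peak within 50 kb was missing from the knockdown list. Prdm14 and the genes Sox2, Klf2, Zfp42 and Lifr, given next, were chosen after their values were seen.

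Peaks of the knockdown list only occurred beside genes with lower as well as higher RNA in the hairpins. Spp1, which encodes osteopontin, had such a peak 1063 bp upstream at place 426 and stood at 192, 165 and 186 FPKM. Dnmt3l, the cofactor of the de novo DNA methyltransferases, had one 1635 bp upstream at place 392 and stood at 108, 88.9 and 89.6 FPKM, with a log2 change of -0.27 ± 0.18 and an adjusted p of 0.955 in limma. Both lay among the earlier places of the list and had RNA below the control in both hairpins. Sox2, the partner of Oct4, had a shared peak 4040 bp downstream at place 92 of the control list. It also had a knockdown-only peak 3630 bp upstream at place 1404 of the knockdown list, and stood at 49.9, 75.1 and 70.4 FPKM. Klf2, a Krüppel-like factor, had shared peaks at places 3 and 114 of the control list and stood at 16.6, 21.3 and 16.8 FPKM. Zfp42, with the side-by-side pair described above, stood at 76.6, 104 and 109 FPKM. Lifr, a subunit of the LIF receptor, had a knockdown-only peak at place 244 of the knockdown list and a shared one nearby, with 6.90, 10.0 and 9.85 FPKM.

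Abundant genes with shared peaks included Fbxo15, an F-box protein gene, at 248, 286 and 300 FPKM, and Dppa5a, an RNA-binding protein gene with a shared and a control-only peak, at 432, 356 and 427 FPKM. Over the core pluripotency list, 26 of 36 genes were above and 7 below the control in both hairpins, with a median log2 change of 0.24 and 0.28, and 0 were called. Over all genes tested, 55.0% were above and 29.5% below in both, with medians of 0.08 and 0.09.

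Gadd45b, a stress-response gene, had lower RNA and a control-only peak. Its control-only peak lay 1114 bp upstream (chr10:80391634-80391810, place 1230 of 1462), and its RNA stood at 90.7 FPKM in the control, 45.0 in hairpin #2 and 32.1 in hairpin #4. Both hairpins lay well below the control, with a log2 change of -1.23 ± 0.38 and an adjusted p of 0.825 in limma. Gadd45g, the related gene whose promoter is printed above, had a knockdown-only peak 104 bp upstream and a shared peak 626 bp upstream (place 732), and lay below the control in both hairpins too, at 23.0, 15.6 and 10.3 FPKM.

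Other genes with an unshared peak within 2 kb of the start had smaller differences. For control-only peaks these included Cops3, a COP9 signalosome subunit (66.8, 65.1 and 66.2 FPKM), Kcmf1, a ubiquitin ligase (48.5, 39.6 and 38.8), and Chchd2, a mitochondrial protein (87.3, 78.1 and 70.6). For knockdown-only peaks they included the glutamine transporter gene Slc1a5 (62.4, 54.6 and 54.1 FPKM), the transcription factor gene Nfe2l1 (63.3, 52.8 and 53.3) and the citrate carrier gene Slc25a1 (61.1, 49.0 and 48.9). These genes of both classes lay below the control in both hairpins, by differences that limma did not call, while Phc1, with its control-only peak 1016 bp upstream, lay above the control in both.

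**Figure D5:**
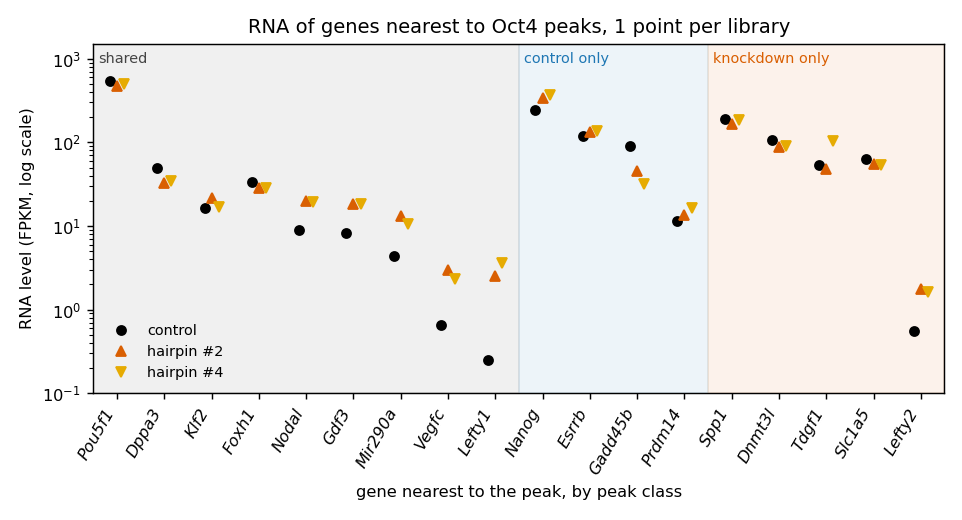
RNA level (FPKM, log scale) of 18 genes nearest to Oct4 peaks in the control library and in hairpins #2 and #4, 1 point per library. Genes are grouped by the class of their peaks within 50 kb. Lefty1, Vegfc, Mir290a, Gdf3 and Nodal near shared peaks and Lefty2 near a knockdown-only peak lie above the control in both hairpins. Gadd45b near a control-only peak and Dppa3 near a shared peak lie below, and most others lie closer to the control.

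The remaining genes past 2-fold had low to moderate RNA. Vegfc, a growth factor of lymphatic vessels, had a shared peak 1101 bp upstream and stood at 0.653, 3.00 and 2.35 FPKM. Zfhx2, a zinc-finger homeobox gene, had a knockdown-only peak 5997 bp downstream of its start and stood at 0.538, 2.27 and 2.66 FPKM. Cenpm, a centromere protein gene, had a knockdown-only peak 3313 bp upstream and stood at 12.7, 30.6 and 28.3 FPKM, while C330021F23Rik, with a control-only peak 21.4 kb upstream, stood at 1.71, 5.59 and 5.11. The Cenpm and Zfhx2 peaks stood at places 1545 and 1536 of 1598.

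The miR-290 cluster on chromosome 7, which encodes microRNAs typical of ESC, had a shared Oct4 peak 4939 bp upstream of Mir290a (chr7:3213600-3213776, place 429). MicroRNAs act through the seed, bases 2 to 8, and 6 of the 7 hairpin genes of the cluster in the RNA table matched a mature 3p sequence in RefSeq by name. The sequences are given to show which of them share a seed, here in capitals.
mmu-miR-290a-3p: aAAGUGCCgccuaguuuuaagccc
mmu-miR-291a-3p: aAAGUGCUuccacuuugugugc
mmu-miR-291b-3p: aAAGUGCAuccauuuuguuugu
mmu-miR-293-3p: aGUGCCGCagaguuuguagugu
mmu-miR-294-3p: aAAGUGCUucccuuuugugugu
mmu-miR-295-3p: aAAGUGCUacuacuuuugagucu

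The seed AAGUGCU was common to miR-291a, miR-294 and miR-295, and miR-290a, miR-291b and miR-293 each had a seed of their own. Reads on these hairpins in polyadenylated RNA come from the primary transcript, not from mature microRNAs, and they are few. Mir290a stood at 4.33 FPKM in the control and 13.3 and 10.5 in the hairpins, from 9, 34 and 22 reads. Mir291b had the most reads, 47, 112 and 85, at 23.7, 46.1 and 42.8 FPKM. All 7 hairpin genes were above the control in both hairpins and listed at 0 in both NeuP libraries. They lie on 1 transcript and are not independent. The log2 change of Mir290a was 1.27 ± 0.21 with an adjusted p of 0.825 in limma. The members other than Mir290a were added after their values were seen.

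Polycomb subunits and Notch genes near peaks gave values on both sides of the control. Suz12 and Eed, core subunits of Polycomb repressive complex 2, had a shared and a knockdown-only peak and stood at 108, 108 and 104 FPKM and at 52.4, 53.9 and 57.7 FPKM. Jarid2, a cofactor of that complex, had 2 shared peaks and 1 knockdown-only peak, with 42.0, 41.4 and 45.2 FPKM, and Phc1 stood at 84.0, 119 and 105. Of the 26 Polycomb subunits tested, 12 were above and 10 below the control in both hairpins, against 55.0% and 29.5% of all genes. Dll1, a Notch ligand with a shared peak 5003 bp upstream, was lower, at 15.4 FPKM in the control and 7.39 and 4.16 in the hairpins. Its receptor Notch1, with a shared peak 362 bp upstream, stood at 6.66, 8.90 and 8.45 FPKM.

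Markers of endoderm had higher values in the hairpins, with 0 called by limma. All 15 tested genes of the endoderm list were above the control in both hairpins, as were 55.0% of all genes, by a median of 0.49 and 0.79 on the log2 scale, and the summed level of its 18 genes was 769 FPKM in the control, 915 in hairpin #2 and 1140 in hairpin #4, with none listed at 0 in the control. The defining factors Gata4 (6.95, 10.6 and 13.1 FPKM) and Gata6 (4.83, 6.29 and 7.65) were present in all 3. Genes of this list with unshared Oct4 peaks included Col4a1, a basement membrane collagen with a control-only peak, at 154, 206 and 266 FPKM, and Lamb1, a laminin with a knockdown-only peak, at 120, 143 and 179. The 19 feeder fibroblast genes summed to 164, 182 and 175 FPKM, most of it from Fn1 at 131, 133 and 138. Among other fibroblast markers, Col3a1 stood at 0.036, 0.029 and 0.192 FPKM. Col1a1 was higher in both hairpins (1.82, 4.77 and 3.24) and Thy1 lower (2.67, 2.28 and 2.34). In bulk samples more endoderm cells and more of this RNA per cell cannot be told apart, and their part in the changes of the Nodal genes was not tested.

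Genes near Oct4 peaks were often lower in NeuP, where Pou5f1 was nearly silent. Limma called 139 of the 418 genes near shared peaks lower in NeuP than in control ESC (33.3%), 74 of 226 near control-only peaks (32.7%) and 92 of 272 near knockdown-only peaks (33.8%), against 24.9% of all genes. Called higher were 20.6%, 19.5% and 13.6%, against 18.3% of all. The median log2 difference was -0.50, -0.41 and -0.58, against -0.26 over all genes. The share lower in NeuP thus lay between 32.7% and 33.8% in the 3 classes. Genes near peaks also started from higher ESC levels, with a median of 10.9 FPKM against 7.98 over all tested genes, and the part of that in the share was not tested.

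Named genes near peaks of each class fell in NeuP. Pou5f1, with a shared peak, fell by 7.59 ± 0.21 on the log2 scale (adjusted p 0.00238 in limma). Nanog was at 0.532 and 0.87 FPKM there (log2 difference -7.19 ± 0.24, adjusted p 0.00238 in limma), Dnmt3l was listed at 0 and at 0.05 (-6.73 ± 0.18, adjusted p 0.00238), and Spp1 was at 1.04 and 2.37 (-6.21 ± 0.38, adjusted p 0.00295). Some neural genes with shared Oct4 peaks rose instead. Nes, an intermediate filament gene of neural progenitors, went from 6.34 FPKM to 60.3 and 124 (3.57 ± 0.50, adjusted p 0.0121), and Sox9, a transcription factor gene of neural and glial progenitors, from 0.276 to 29.9 and 7.66 (3.68 ± 0.84, adjusted p 0.036). Over the neural progenitor list 16 of 20 genes were called higher in NeuP and 0 lower. These counts rest on few libraries, and the number called moved when a library was left out, near peaks and over all genes. Leaving out NeuP library 1 gave median log2 differences of -0.40, -0.23 and -0.46 near shared, control-only and knockdown-only peaks. Leaving out NeuP library 2 gave -0.62, -0.47 and -0.72. Why the number called moved was not tested.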

How the data were processed

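ChIP-seq, DamID-seq and RNA-seq of mouse ESC and NeuP were used as deposited. Per the submitters' processing notes, reads were sorted with CASAVA 1.8.2, aligned with Bowtie2 2.1.0 or STAR 2.2.0c to mm9, and processed with HOMER 4.6 and edgeR (no version given). The authors deposited peaks as start and end positions with no heights. Per the file headers, Oct4 peaks were called on 1 library a side with HOMER, at a false discovery rate of 0.001, at least 4-fold over IgG and 4-fold over the local 10000 bp. How the 2 DamID replicates were combined is not stated by any source used here.

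RNA levels were deposited by the authors as FPKM, for 24016 transcripts, 1 per gene. The whole-read steps of low values gave depths of 24.3 to 32.2 M fragments per library. The 13750 genes that reached 1 FPKM in any of the 5 libraries entered limma-trend (limma 3.58.1, R 4.3.3) on log2(FPKM + 1) with the groups control (1 library, assumed to vary like the others), knockdown (2 hairpins) and NeuP (2). The fit had 2 residual and 1.74 prior degrees of freedom, tests were two-sided, Benjamini-Hochberg adjustment covered all genes tested, and fold changes on this scale understate those of low genes. Symbols and promoter windows came from RefSeq. Python 3.11.15 with numpy 2.4.6, pandas 2.3.3, scipy 1.17.1 and matplotlib 3.10.9 served for the peak comparisons, and shares carry Wilson 95% intervals. The scripts were tested on simulated data, in which NeuP did not differ and all planted changes were above 2-fold. That test does not bear on whether limma would call smaller changes here.

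The peak classes and gene lists were chosen with earlier results of these data known, so no list is independent evidence. Named genes were, per list, up to 6 with a peak by mean ESC FPKM, up to 10 per unshared class with a peak within 2 kb of the TSS, genes with 3 or more peaks of a class, up to 6 per class by the smaller change of both hairpins, and Nup153 and Pou5f1. Not all are printed. The input sample and DamID of GFP had no peak list of their own to compare. The alternatives tried were other overlaps, windows, pseudocounts, filters, a quantile normalization, voom on recovered reads, and fits leaving out libraries.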

Additional observations from a re-analysis of the deposited data

How the results depend on the processing

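The share of the control list that was shared was 60.5% with 50% overlap both ways, 68.0% between the peaks before the middle of both lists and 83.7% for these peaks of 1 list against the whole other list. The knockdown list gave 55.3%, 62.2% and 79.7%. The last comparison and the one without chromosomes 6 and X were chosen after seeing the data. For peaks before the middle of both lists the classes were drawn anew, so peaks that overlapped only a later peak counted as unshared. There, overlap was 83.9% with Ring1B of control ESC and 50.9% with Cbx7 for shared peaks. For control-only peaks it was 30.3% with Oct4 DamID, 20.9% with Nup153 DamID (18.5% for shared peaks), 70.1% with Ring1B and 29.5% with Cbx7, and for knockdown-only peaks 21.9% with Oct4 DamID, 75.8% with Ring1B and 41.7% with Cbx7, with 5.63% of them near a TSS. Within 1 kb of a TSS lay 5.74% of shared, 8.81% of control-only and 5.62% of knockdown-only peaks, and within 5 kb 19.8%, 19.3% and 15.7%.

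Genes near Oct4 peaks at least 2-fold higher in both hairpins numbered 32 with a pseudocount of 0.1, 0 with 5, 3 after quantile normalization, 47 with voom, 4 within 2 kb, and from 8 to 15 when a library was left out. At least 2-fold lower in both were 2 with a pseudocount of 0.1, 1 after quantile normalization and 7 with voom. With 1 hairpin left out only the other was counted, which gave 15 higher and 0 lower in #2, and 14 and 3 in #4. Counts over all genes were not taken under these settings, so no share stands beside them. With no filter on low values limma called 3 higher and 6 lower in the knockdown (of 1268, against 230 of 24016 genes in all), and with the ESC libraries alone and their own filter 196 and 59. Quantile normalization gave median changes of 0.06, 0.03 and 0.04 for genes near shared, control-only and knockdown-only peaks. Within 2 kb the median was 0.20 for shared, 0.14 for control-only and, with the opposite sign, -0.01 for knockdown-only peaks.

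In NeuP, the medians were -0.16, -0.08 and -0.24 with no filter, -0.95 for knockdown-only peaks within 10 kb and -0.75 for control-only peaks within 2 kb. Genes called higher numbered 86 within 10 kb, 32 within 2 kb, 278 at any distance, and from 14 to 307 when a library was left out. Genes called lower numbered 181 within 10 kb, 63 within 2 kb, and from 137 to 560 when a library was left out. The tested genes near peaks behind these counts numbered 492 within 10 kb, 184 within 2 kb and 1285 at any distance. They numbered 987 when a library was left out. Over all genes the main fit called 18.3% higher and 24.9% lower in NeuP. With a library left out, the numbers called over all genes moved in the same direction as those near peaks. These moves were therefore not particular to genes near Oct4 peaks. Fewer genes or libraries entered several of these fits, and for the rest the cause was not tested. Log2 changes with no call that changed sign were Pou5f1 0.12, Dppa5a 0.16, Spp1 0.05, Suz12 0.05, Aebp2 0.00 and Cops3 0.03 after quantile normalization, and, without hairpin #4 and without hairpin #2, Tdgf1 (-0.17 and 0.93), Suz12 (0.00 and -0.05), Jarid2 (-0.02 and 0.10), Mkrn1 (0.01 and -0.36), Tfap2c (0.22 and -0.08), Tead4 (-0.11 and 0.00) and Aebp2 (-0.01 and 0.00).

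No paired analysis was possible because the knockdown numbers are hairpins, the control has 1 library, and the NeuP numbers share at most 1 with either. One library a side limits the Oct4 lists, and their depth of 20.1 to 24.6 M tags left peaks near the threshold of 13 or 14 tags.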
